A study of Saccharomyces cerevisiae with 96 samples.

Results

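The genes for the proteins of the large (60S) subunit of the cytosolic ribosome of budding yeast were followed through RNA captured by its 5′ NAD cap and through total RNA. Members were the mRNAs whose symbol is RPL with a number and an optional A or B, together with RPP0, RPP1A, RPP1B, RPP2A and RPP2B. The rule used names only and no measured value. It found 81 genes among 7647 RNAs in the capture tables and 7620 in the transcriptome tables, of which 6598 were mRNAs. The 81 genes form 35 duplicate pairs (70 genes) and 11 single genes, and they encode proteins of 25 codons (RPL41A, RPL41B) to 387 codons (RPL3).

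The large subunit joins amino acids in its peptidyl transferase centre, passes the growing chain through an exit tunnel, and carries the P stalk, which recruits the elongation factors. Yeast cells in rich glucose medium transcribe these genes heavily and in concert with those of the small subunit, and lower them when nutrients run out or under stress. Many of the genes carry an intron close to the start codon, although introns are rare in this genome. Some RNAs begin with NAD in place of the usual cap, and Npy1 (a Nudix hydrolase), Dxo1 and Rai1 (enzymes of the DXO family, of which Rai1 is also the partner of the nuclear 5′ to 3′ exonuclease Rat1) remove such a cap in vitro.

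By the sources used here, all cells were the haploid strain BY4742 (MATα his3Δ1 leu2Δ0 lys2Δ0 ura3Δ0) in log phase in YPD, a rich glucose medium. The strains were npy1Δ (npy1::kanMX4), dxo1Δ (dxo1::natNT2), rai1Δ (rai1::hphNT1), dxo1Δnpy1Δ, dxo1Δrai1Δ, rai1Δnpy1Δ, dxo1Δrai1Δnpy1Δ and the WT with none of these deletions. Mutants came from crosses and random spore isolation, and how many independent isolates of a strain were sequenced is not given in the sources used here. In NAD captureSeq, ADP-ribosyl cyclase (ADPRC) exchanges the nicotinamide of an NAD cap for a tag that allows capture, and each +ADPRC library was set against a −ADPRC library prepared without the enzyme. Unfragmented RNA was captured in all 8 strains, small and large RNA fragments were captured in npy1Δ and WT, and the rRNA-depleted transcriptome was sequenced in all 8 strains, with 3 biological replicates per group and 96 libraries in all.

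Counted reads came to between 616837 and 19424126 in the unfragmented +ADPRC libraries and between 470978 and 29300164 in their −ADPRC controls. The transcriptome libraries held 4926021 to 17733417 reads over the 5′ regions and other RNAs, and 23241152 to 43152924 over coding sequences. The 5′ region of an mRNA ran from 120 bases before to 65 bases after the start of translation. Reads over the deleted genes fitted the strain labels for NPY1 (0 to 13 in strains lacking it, 32 to 195 in the others) and RAI1 (0 to 1, against 7 to 41), while DXO1 was too low for the ranges to separate (0 to 2, against 0 to 22). Of the transcriptomes, npy1Δ and WT shared one sequencing run and the other 6 mutants shared another, so that for those 6 a difference from WT and a difference between runs cannot be told apart. In bulk RNA, fewer cells expressing a gene and less RNA per cell cannot be told apart either. No 2 libraries held identical counts.

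The reads were mapped without gaps, so a read that crosses a splice junction was not counted. Of the 81 genes, 53 have an intron in the coding sequence, and 46 have a junction inside the counted 5′ region. That region was taken to run along the genome, intron bases included, which the sources used here do not settle. The first 30 bases of 4 such genes, from the start codon, show how early the intron begins. They come from RefSeq's R64 assembly of strain S288C, the parent of BY4742, which is another build than the BY4742 assembly used for counting. Capitals mark the first coding exon, and lower case marks the start of the intron.
RPL39 (chrX:75933-75962, plus strand): ATGGCTgtatgttagaaagatattataaat
RPL25 (chrXV:80348-80377, plus strand): ATGGCTCCATCTGgtatgtgaactgcaata
RPL30 (chrVII:439091-439120, plus strand): ATGgtcagtataacatgattttataactat
RPL22B (chrVI:64903-64932, minus strand): ATGGCTCCAAACgtacgttaattttcgttc
The first exon ends after 6, 13, 3 and 12 coding bases in these genes. Of the 46 introns with a junction in the counted region, 35 begin with GTATGT, the usual yeast 5′ splice site, 5 with GTACGT, 2 each with GTATGA and GTATGC, and 1 each with GTCAGT and GTGAGT.

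The members were far more abundant in every mutant than in WT. Over whole coding sequences all 81 were called higher in each of the 7 mutants (edgeR's quasi-likelihood test, adjusted p under 0.05 and a log2 fold change over 0.5). Of all RNAs tested, 36.3% in npy1Δ, 38.5% in dxo1Δ, 38.8% in rai1Δ, 38.4% in dxo1Δnpy1Δ, 38.5% in dxo1Δrai1Δ, 38.4% in rai1Δnpy1Δ and 38.5% in dxo1Δrai1Δnpy1Δ were called higher in this way. The median log2 fold change of the members lay between 3.71 and 4.01. None was lower by edgeR, at an unadjusted p under 0.05 (0) or by DESeq2 (0), while 34.6%, 36.3%, 36.4%, 36.5%, 35.6%, 36.2% and 36.4% of all RNAs were called lower in the same order of mutants. Scaled to CPM of the mRNA coding reads of a library, the members together stood at 95050 ± 8307 in npy1Δ, against 10084 ± 106 in WT (SD, n = 3 each). The means of the other 6 mutants ran from 107105 to 116681 CPM.

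Genes for proteins near the catalytic centre or of the subunit's assembly come first. Levels by library are RPKM, here the CPM of a gene's coding reads divided by the length of its coding sequence in kilobases. This scales genes of different length to each other. Very short coding sequences, such as the 78 bases of RPL41A and RPL41B, are less surely comparable with longer ones. RPL3, whose protein reaches toward the peptidyl transferase centre, stood at 4779, 4659 and 4533 in npy1Δ libraries, against 762, 728 and 704 in WT, and over the 21 mutant libraries it ran from 3592 to 5453 (median 4272). RPL5, which binds 5S rRNA, stood at 3929, 3758 and 4255 in npy1Δ and 449, 448 and 432 in WT, with a mutant range of 3758 to 5995 (median 5402). RPL10, one of the last proteins to join the subunit, stood at 4767, 4870 and 5075 in npy1Δ and at 776, 824 and 777 in WT. For these genes every mutant library lay above every WT library, and the medians of the mutant and WT libraries differed 5.87-fold, 12.1-fold and 7.00-fold.

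At the exit tunnel, RPL39, whose small protein lines the tunnel wall, stood at 4375, 4406 and 4754 in npy1Δ, against 408, 460 and 397 in WT. RPL25, which sits at the tunnel's mouth where the signal recognition particle docks, stood at 3674, 3544 and 4602 in npy1Δ and at 286, 334 and 325 in WT. The ratios of the medians over all mutant and WT libraries were 18.1 for RPL39 and 15.4 for RPL25. RPL41A and RPL41B encode the smallest protein of the ribosome. RPL41A, with a ratio of medians of 3.61, ran from 1023 to 2373 over the mutant libraries (median 1507), against 365 to 495 in WT, and RPL41B, with 5.52, from 936 to 4375 (median 2947), against 399 to 590 in WT.

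The stalk genes also differed in degree. RPP0, the base of the stalk, stood at 5128, 4448 and 4952 in npy1Δ and at 535, 463 and 485 in WT. Of the acidic stalk proteins, RPP1A had 4487, 4402 and 4818 in npy1Δ and 1131, 1190 and 1075 in WT, and RPP2B had 5453, 5130 and 4920 in npy1Δ and 1512, 1382 and 1429 in WT. RPP1B had 2588, 2516 and 3094 in npy1Δ and 278, 297 and 299 in WT, and RPP2A had 3684, 3594 and 4380 in npy1Δ and 313, 308 and 327 in WT. RPP1A and RPP2B, the copies that were higher in WT, therefore had the smaller ratios of medians between mutants and WT (4.87 and 5.73, against 10.7 for RPP1B and 16.3 for RPP2A).

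The spread over the members was wide in both strains of the shared run. In npy1Δ their mean coding levels ran from 158 to 5167 with a median of 2260, and in WT from 15.5 to 1441 with a median of 183. RPP2B was the highest member in npy1Δ and in WT. The median ratio of mutant to WT medians over the 81 genes was 13.7, and all 81 had every mutant library above every WT library. How many of all RNAs were apart in this way was not counted. By coding counts 36.3% to 38.8% of all RNAs were called higher in a mutant. The largest coding difference in each of the 7 mutants was that of RPL6B, at 1317, 1313 and 1588 in npy1Δ and 29.5, 31.4 and 41.8 in WT, which is a log2 fold change of 5.65 ± 0.16 (SE). RPL15B, the weak copy of its pair, changed least in the 6 mutants other than npy1Δ, with 85.8 to 164 over all mutant libraries and 43.5 to 48.4 in WT. RPL41B changed least in npy1Δ, by a log2 fold change of 1.33 ± 0.13 (SE).

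**Figure D1:**
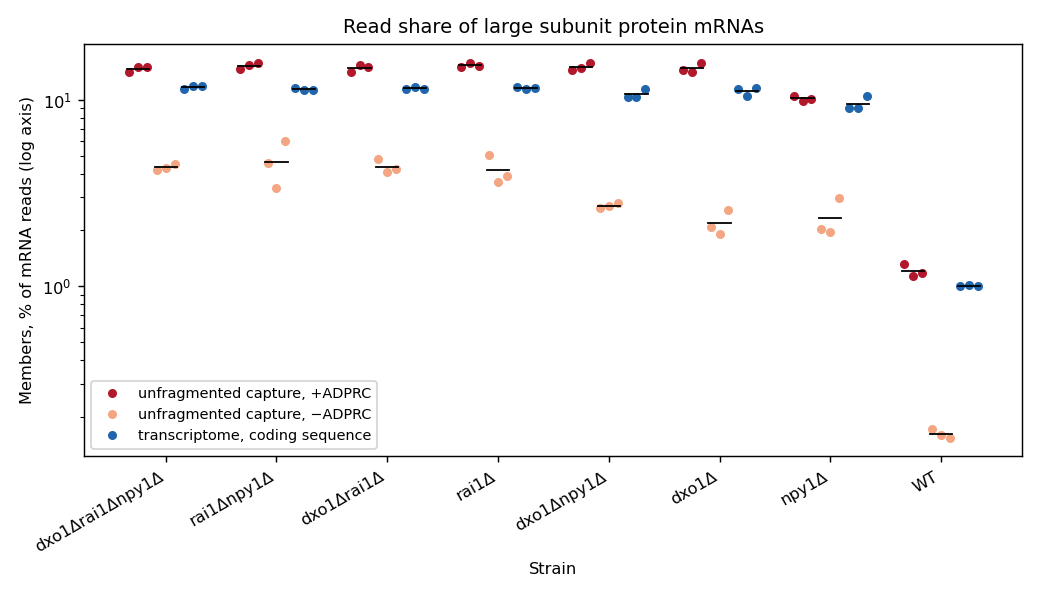
Members' share of mRNA reads in percent (log axis) for each strain, one point per library with a line at the mean of 3: red, unfragmented +ADPRC capture; salmon, −ADPRC control; blue, transcriptome coding reads. In each strain the +ADPRC points lie above the −ADPRC points, and the WT lies lowest in all 3 kinds of library.

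Other gene lists moved in the same libraries. The 9 genes of glucose-depleted growth (PCK1, FBP1, ICL1, MLS1, ADH2, ACS1, JEN1, HSP12, HSP26) summed to 1087 ± 186 CPM of coding reads in npy1Δ and 30827 ± 432 in WT. Their 5′ counts were lower than in WT for 9 of 9 and their coding counts for 8 of 9 in each of the 7 mutants. The exception was ADH2, whose coding sequence closely resembles that of ADH1, with a coding log2 fold change of 0.95 ± 0.16 (SE) in npy1Δ, called higher, and -0.37 to 0.46 in the other mutants, not called. Over the list the sum ran from 617 to 1226 over the mutant libraries and from 30384 to 31247 in WT. The sum of the hexose transporter genes HXT1, HXT3 and HXT4 went the other way, with 2804 ± 494 in npy1Δ and 297 ± 9.26 in WT, and 2224 to 4686 over the mutant libraries. All cultures are described as log phase in YPD, and the part of these differences between the cultures in the members' levels was not tested. Genes of the 40S subunit summed to 66763 ± 6451 in npy1Δ and 5740 ± 181 in WT, and 56 of 56 were higher by coding counts, with a median log2 fold change of 3.84. Of 48 assembly factors of the 60S subunit 47 were higher by coding counts, with 6367 ± 528 in npy1Δ and 2007 ± 133 in WT. Proteins of the mitochondrial large subunit summed to 860 ± 60.8 in npy1Δ and 939 ± 48.2 in WT, with 12 of 34 higher and 3 lower. Of 11 regulators of ribosomal protein genes 4 were higher and 5 lower.

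The 5′ counts gave a less uniform picture than the coding counts. In npy1Δ 66 members were higher and 5 lower than in WT, where 34.5% of all RNAs tested were higher and 32.9% lower. The counts were 76 higher and 2 lower in dxo1Δ (36.7% and 34.2% of all RNAs), 77 and 1 in rai1Δ (38.7% and 34.2%), 75 and 2 in dxo1Δnpy1Δ (36.9% and 34.8%), 76 and 1 in dxo1Δrai1Δ (38.4% and 33.6%), 77 and 1 in rai1Δnpy1Δ (37.9% and 34.6%), and 78 and 1 in dxo1Δrai1Δnpy1Δ (39.0% and 34.8%). The median log2 fold change of the members was 2.43 in npy1Δ and between 2.80 and 3.40 in the others. Scaled by total counts instead of TMM, the median of all RNAs in npy1Δ was 1.50 on the log2 scale, against 0.03 under TMM, 68.3% of all RNAs were called higher and 11% lower, 76 members were higher and none was lower. Among the largest 5′ differences in npy1Δ at a base mean over 20 were those of RPL14A (4.97 ± 0.22) and RPL8A (4.80 ± 0.25; log2 fold changes ± SE).

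The members that were lower by 5′ counts all had a junction in the counted region. In npy1Δ they were RPL16A, RPL7A, RPL43B, RPL36B and RPL19A, with log2 fold changes of -2.06, -1.90, -1.56, -0.89 and -0.61. The 5′ region of RPL16A held 26, 35 and 44 reads in the npy1Δ libraries, against 116, 99 and 101 in WT. Over its coding sequence it had a level of 1486, 1464 and 1753 in npy1Δ and 84.0, 95.0 and 88.9 in WT, which is a log2 fold change of 4.43 ± 0.11 (SE). RPL16A was the member called lower by 5′ counts in all 7 mutants under TMM, but under scaling by total counts its log2 fold change was negative only in npy1Δ (-0.59) and dxo1Δnpy1Δ (-0.21), and it ran from 0.42 to 0.65 in the other 5. RPL7A, with 5, 7 and 17 reads in npy1Δ and 17, 29 and 35 in WT, was also lower under TMM in dxo1Δ and dxo1Δnpy1Δ (-0.92 and -0.85) and positive there under total counts (0.70 and 0.84). For RPL36B and RPL19A in npy1Δ the sign also turned under total counts (0.57 and 0.85).

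Split by the junction, the 46 genes with a junction had a median 5′ log2 fold change of 1.61 in npy1Δ (31 higher, 5 lower), and the 35 without one had 3.37 (35 higher and 0 lower, also at an unadjusted p under 0.05). Over coding sequences the medians were 3.98 and 3.52. In the 4 strains lacking RAI1 the 5′ medians lay closer together, at 3.32 with a junction and 3.78 without in dxo1Δrai1Δnpy1Δ and at 3.29 and 3.61 in rai1Δ, for example. The plot of 5′ against coding differences shows it gene by gene.

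**Figure D2:**
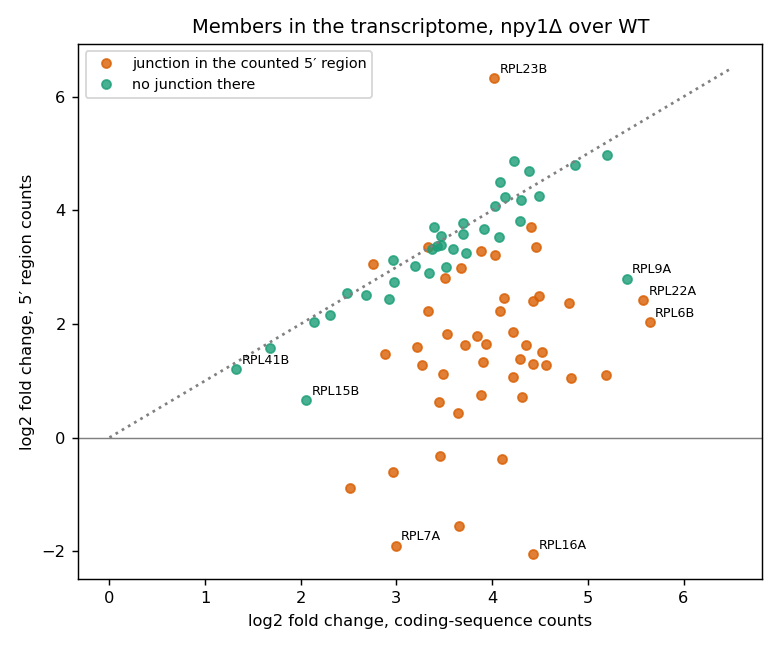
Log2 fold change of npy1Δ over WT for each of the 81 genes, by coding-sequence counts (x) and by 5′-region counts (y): orange, 46 genes with a splice junction in the counted region; green, 35 without; dotted, equal change. Most green points lie near the line and most orange points lie below it, RPL16A lowest.

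For members with a junction, the ratio of the 2 counts separated the mutants that lack RAI1 from the mutants that keep it. This split was chosen after these values were seen. Members with a junction had 2.33 ± 0.12 reads in the 5′ region per 1000 coding reads in dxo1Δrai1Δnpy1Δ, 2.11 ± 0.45 in rai1Δnpy1Δ, 1.77 ± 0.25 in dxo1Δrai1Δ and 2.32 ± 0.18 in rai1Δ. The mutants that keep RAI1 had 1.07 ± 0.03 in dxo1Δnpy1Δ, 0.963 ± 0.125 in dxo1Δ and 0.665 ± 0.091 in npy1Δ, and the WT had 5.62 ± 0.80 (SD, n = 3 each). Members without a junction had 127 ± 2.9, 114 ± 15, 94.5 ± 17.1 and 130 ± 6.2 in the same 4 strains without RAI1, 77.1 ± 8.9, 72.2 ± 3.3 and 71.3 ± 5.6 in the other mutants and 80.6 ± 11.1 in WT. Pooled over the genes with a junction, the groups of libraries therefore did not overlap, and the WT stood above all of them. Without a junction they overlapped, with 77.3 in dxo1Δrai1Δ replicate 1 and 84.1 in dxo1Δnpy1Δ replicate 2. The pooled WT value leaned on single genes. Gene by gene the WT median was 2.52, against 1.73 without RAI1. RPL16A stood at 92.6 in WT and 3.12 without RAI1, while RPL37B (0.257 and 3.25) and RPL6A (0.323 and 2.18) were lower in WT.

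Gene by gene, the ratio of reads summed over the 4 strains without RAI1 was above that of the other 3 mutants for 46 of 46 members with a junction, by a median of 2.23-fold (1.19 to 5.55), and for 35 of 35 without one, by 1.411-fold (1.03 to 1.97). Of those 3 mutants, npy1Δ was sequenced in the other run, so these folds mix RAI1 with the run in part. Among the other mRNAs 5181 of 6244 (83.0%) were higher in the same direction, by a median of 1.24-fold. The largest factors were those of RPL22A (5.55), RPL22B (4.35), RPL21B (4.29) and RPL30 (4.26). RPL22B and RPL30 are genes whose own proteins are known to hold back the splicing of their transcripts. The part of such control in these factors was not tested. RPL22A had 149, 124 and 180 reads in its 5′ region in dxo1Δrai1Δnpy1Δ and 177, 123 and 141 in rai1Δ, against 44, 31 and 46 in dxo1Δnpy1Δ, 27, 31 and 39 in dxo1Δ, and 2, 2 and 3 in WT. Its coding level in the same libraries was 3312, 3421 and 3409 in dxo1Δrai1Δnpy1Δ, 3283, 3180 and 3339 in rai1Δ, 3117, 3264 and 3645 in dxo1Δnpy1Δ, 3531, 3205 and 3673 in dxo1Δ, and 75.6, 65.1 and 80.5 in WT. The 5′ counts of RPL22A thus set the strains apart while its coding levels in the mutants overlapped.

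**Figure D3:**
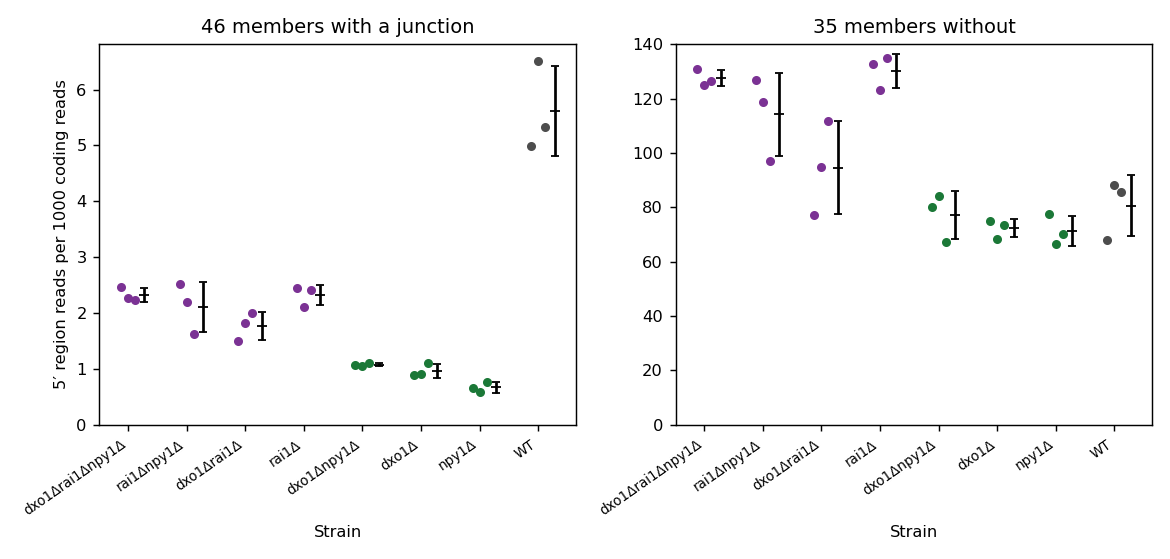
Reads in the 5′ region per 1000 coding reads, for the 46 members with a splice junction in the counted region and the 35 without, by strain: points are libraries, bars the mean with SD of 3 replicates; purple, strains lacking RAI1; green, other mutants; grey, WT. With a junction the purple bars stand at 1.77 to 2.33, the green at 0.665 to 1.07 and the WT at 5.62.

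Between mutants that differ by 1 deletion, 9 comparisons gave 152 calls by 5′ counts and 30 by coding counts. Most of the 5′ calls came from strains lacking RAI1 set against the strain that keeps it. In dxo1Δrai1Δ against dxo1Δ, within one run, 19 members were higher and 3 lower by 5′ counts (7.59% and 5.54% of all RNAs), and all 19 have a junction. In dxo1Δrai1Δnpy1Δ against dxo1Δnpy1Δ, also within one run, 44 were higher and 3 lower (11.5% and 10.8%), 32 of the 44 with a junction. In rai1Δnpy1Δ against npy1Δ 47 were higher and 3 lower (16.8% and 16.0%), and in dxo1Δnpy1Δ against npy1Δ 29 were higher and 4 lower (12.5% and 12.7%), but both cross runs, which cannot be told apart from the deletion. By coding counts 1 member was higher and 5 lower in dxo1Δrai1Δ against dxo1Δ (9.14% and 5.76% of all RNAs), 4 and 5 in dxo1Δrai1Δnpy1Δ against dxo1Δnpy1Δ (9.88% and 6.51%), 6 and 7 in rai1Δnpy1Δ against npy1Δ (14.5% and 12.5%) and 1 and 1 in dxo1Δnpy1Δ against npy1Δ (8.98% and 8.45%). Without replicate 2 the 152 calls fell to 91, and calls at a log2 fold change over 2 numbered 16. Under total counts RPL8A, RPL9B and RPL18B kept their sign in both within-run comparisons.

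In the other 5 comparisons no member passed by either count in edgeR. At an unadjusted p under 0.05, 1 member passed in dxo1Δnpy1Δ against dxo1Δ (0.0145% of all RNAs higher and 0.0145% lower at the adjusted p), 3 in dxo1Δrai1Δ against rai1Δ (0.287% and 0.402%), 1 in rai1Δnpy1Δ against rai1Δ (0.0287% and 0.0287%), 2 in dxo1Δrai1Δnpy1Δ against dxo1Δrai1Δ (0.431% and 0.373%) and 0 in dxo1Δrai1Δnpy1Δ against rai1Δnpy1Δ (0.0865% and 0.0288%). DESeq2 called 1 member lower in dxo1Δrai1Δ against rai1Δ, 1 higher in dxo1Δrai1Δnpy1Δ against dxo1Δrai1Δ, and 0 in the other 3. By coding counts 1 member passed at an unadjusted p and 1 by DESeq2, both in dxo1Δrai1Δ against rai1Δ, and 0 in the other 4, where edgeR's calls over all RNAs ran from 0.00% to 0.0561%.

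Some members also differed over the coding sequence when RAI1 was absent. RPL8A, whose protein binds the rRNA of the large subunit, had levels of 311, 324 and 336 in dxo1Δrai1Δnpy1Δ, 331, 293 and 355 in rai1Δnpy1Δ, 304, 326 and 307 in dxo1Δrai1Δ and 333, 290 and 286 in rai1Δ. It had 952, 923 and 1081 in dxo1Δnpy1Δ, 1007, 927 and 1134 in dxo1Δ, 1153, 1155 and 1305 in npy1Δ, and 48.0, 50.9 and 53.4 in WT. The log2 fold change was -1.86 ± 0.11 in dxo1Δrai1Δ against dxo1Δ and -1.73 ± 0.09 in dxo1Δrai1Δnpy1Δ against dxo1Δnpy1Δ by coding counts, and -1.91 ± 0.14 and -1.58 by 5′ counts (edgeR, SE). Each of the 12 libraries without RAI1 thus lay below each library of the other mutants for this copy of the pair, while the other copy, RPL8B, ran from 2942 to 3255 in them, against 2142 to 2844 in the other mutants and 127 to 141 in WT.

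RPL9B and RPL18B were also lower in dxo1Δrai1Δ than in dxo1Δ. RPL9B ran from 354 to 401 in the strains without RAI1, from 597 to 746 in the other mutants and from 96.7 to 105 in WT, and its coding log2 fold changes within runs were -1.07 ± 0.08 in dxo1Δrai1Δ against dxo1Δ and -0.94 in dxo1Δrai1Δnpy1Δ against dxo1Δnpy1Δ. RPL18B ran from 483 to 535 in the strains without RAI1 and from 682 to 787 in dxo1Δ and dxo1Δnpy1Δ, but npy1Δ, at 496, 508 and 511, lay within the first range. RPP0 fell by 0.52 and 0.53 on the log2 scale in the same comparisons. RPL22B fell by 0.56 and 0.67 over the coding sequence while its 5′ count was higher by 1.50 ± 0.22 and 1.19, so that its direction depends on which count is read.

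RPL39 and RPL41B were among the members higher without RAI1. The ranges of mutants without and with RAI1 also did not overlap for further members. RPL29 (4585 to 6873 against 3292 to 4417) and RPL43A (6421 to 7662 against 3467 to 5773) lay higher, for example, and RPL2A (1289 to 1431 against 1518 to 1655) lay lower. RPL39 ran from 7098 to 9591 in the strains without RAI1, from 4375 to 5383 in the other mutants and from 397 to 460 in WT, and was called higher by coding counts in dxo1Δrai1Δnpy1Δ against dxo1Δnpy1Δ (log2 fold change 0.87 ± 0.09) and not in dxo1Δrai1Δ against dxo1Δ. RPL41B ran from 2822 to 4375, against 936 to 1999 and 399 to 590, and was called in both (0.53 ± 0.10 in dxo1Δrai1Δ against dxo1Δ and 1.06 in dxo1Δrai1Δnpy1Δ against dxo1Δnpy1Δ).

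**Figure D4:**
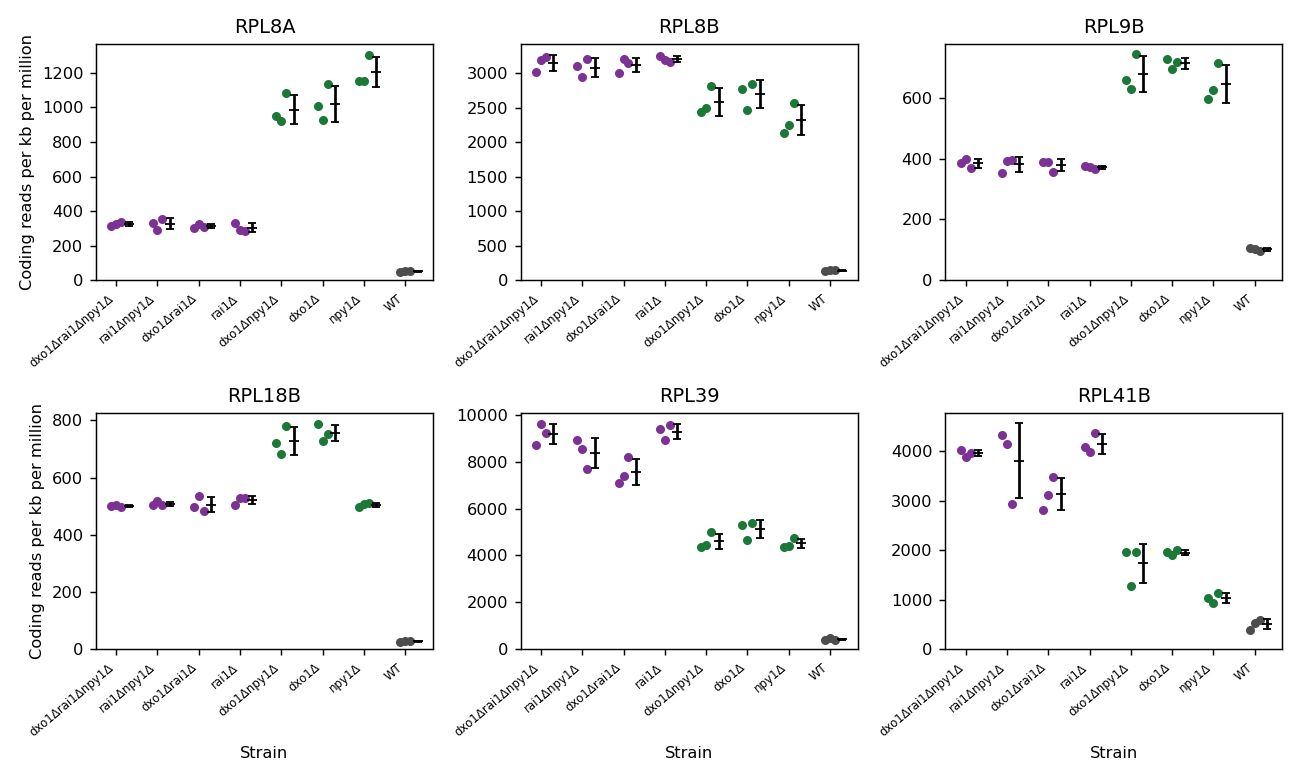
RPKM over the coding sequence (reads scaled to the mRNA coding reads of a library and to length) of 6 members by strain, points for libraries and bars for the mean with SD of 3 replicates: purple, strains lacking RAI1; green, other mutants; grey, WT. RPL8A and RPL9B are lower and RPL39 and RPL41B higher in the purple strains than in the green, and all lie above WT.

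How far the copies of a pair can be told apart sets a limit on these values. The starts of the coding sequences of 3 such pairs are shown with the bases that differ in capitals (RefSeq R64).
RPL8A (chrVIII:35996-36025, minus strand): atggcCccaggtaagaaagtCgctccagct
RPL8B (chrXII:48600-48629, minus strand): atggcTccaggtaagaaagtTgctccagct
RPL41A (chrIV:130455-130484, minus strand): atgagagcCaagtggagaaagaagagaact
RPL41B (chrIV:221772-221801, minus strand): atgagagcTaagtggagaaagaagagaact
RPL9A (chrVII:228300-228329, minus strand): atgaaAtacatCcaaacTgaacaacaaatC
RPL9B (chrXIV:499681-499710, plus strand): atgaaGtacatTcaaacCgaacaacaaatT
The copies differ at 2, 1 and 4 of these bases. Over the counted 5′ region no pair shared a run of 75 bases, 5 pairs shared a run of 30 bases, and the median identity was 41.6%. In the coding sequences 16 of 35 pairs shared a run of 75 bases, and in 8 of them such runs made up over 10% of the sequence, so their coding counts are less certain. The RPL41 copies shared no such run, but their 78 coding bases were 98.7% identical. The mapping allowed mismatches, so the split between RPL41A and RPL41B is uncertain too.

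One copy was usually the higher one whatever the strain. In 28 of 35 pairs the same copy had the higher mean coding level in all 8 strains, and the libraries of the 2 copies did not overlap in 26 pairs in npy1Δ and in 32 in WT. The A copy was higher in 23 pairs in npy1Δ and in 18 in WT. Among the pairs that differed most in WT were RPL36, with a log2 ratio of A over B of -1.42 in npy1Δ and -3.22 in WT, and RPL15, with 4.56 in npy1Δ and 2.92 in WT. In WT RPL36A stood at 55.1 ± 6.9 and RPL36B at 512 ± 17. The least different pairs in WT were RPL23 (-0.06 in npy1Δ and -0.07 in WT), RPL14 (1.21 in npy1Δ and 0.09 in WT) and RPL24 (0.65 in npy1Δ and -0.13 in WT). RPL9 turned round, with 2.17 in npy1Δ and -0.26 in WT. RPL8 stood at -3.40 in rai1Δ, -0.95 in npy1Δ and -1.43 in WT. RPL22A exceeded RPL22B by 4.15 in npy1Δ and 2.25 in WT.

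The RPL22 pair carries its first junction at the same place, and its first 30 bases diverge after it (capitals mark the 10 bases that differ).
RPL22A (chrXII:263194-263223, plus strand): atggcCccaaacgtaTgAtaCtttAAAAGG
RPL22B (chrVI:64903-64932, minus strand): atggcTccaaacgtaCgTtaAtttTCGTTC
RPL22B was the scarcest of the genes given by library, at 127, 135 and 224 in npy1Δ and 12.3, 19.0 and 15.0 in WT, and RPL22A had 2800, 2754 and 3088 in npy1Δ.

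In NAD capture the members made up a larger share of the captured mRNA than of the control. In unfragmented +ADPRC libraries they took 14.7 ± 0.550% of mRNA reads in dxo1Δrai1Δnpy1Δ, 15.2 ± 0.627% in rai1Δnpy1Δ, 14.7 ± 0.634% in dxo1Δrai1Δ, 15.0 ± 0.672% in dxo1Δnpy1Δ, 15.3 ± 0.362% in rai1Δ, 14.8 ± 0.822% in dxo1Δ, 10.2 ± 0.280% in npy1Δ and 1.21 ± 0.0981% in WT (SD, n = 3 each). The −ADPRC libraries of the mutants held between 1.91 and 6.03%, and those of WT 0.162 ± 0.00884%. The ratio of +ADPRC to −ADPRC share was 3.37, 3.26, 3.37, 5.54, 3.65, 6.79 and 4.38 in the 7 mutants in that order and 7.46 in WT. In all 8 strains the +ADPRC and −ADPRC libraries did not overlap (exact two-sided permutation test p = 0.1, the smallest that 3 against 3 allow). In the transcriptome the members took 6.91 ± 0.411% of mRNA 5′ reads in npy1Δ and 0.740 ± 0.0516% in WT. Those 5′ counts hold few reads of the members with a junction. Of mRNA coding reads the members took 9.50 ± 0.831% in npy1Δ and 1.01 ± 0.0106% in WT.

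Nearly all members were called enriched in the mutants (edgeR, adjusted p under 0.05 and a fold over the square root of 2). The counts were 73 of 81 in dxo1Δrai1Δnpy1Δ (53.1% of all RNAs tested), 81 in rai1Δnpy1Δ (83.1%), 80 in dxo1Δrai1Δ (68.0%), 73 in dxo1Δnpy1Δ (57.2%), 72 in rai1Δ (56.0%), 81 in dxo1Δ (87.3%) and 79 in npy1Δ (44.7%). In every mutant but npy1Δ over 50% of all RNAs were thus called as well. In WT, 32 of 54 members with a base mean over 1 were enriched, against 36.1% of all RNAs, and 27 members were too low to test. None of the members tested was depleted in any strain, also at an unadjusted p under 0.05 (0 in each) or by DESeq2 (0 in each), where edgeR called 7.70%, 7.83%, 7.89%, 8.30%, 6.78%, 7.64% and 7.38% of all RNAs depleted in the mutants in the same order and 3.37% in WT. The enrichment calls with 1 library left out stayed within 1.5 times in all mutants. The calls moved with the scaling. Under total counts 81 members were enriched in each of the 7 mutants and 38 in WT, but so were 85.7%, 87.0%, 84.9%, 91.3%, 81.6%, 90.7% and 60.1% of all RNAs in the mutants in the same order and 43.5% in WT. The median log2 fold change of all RNAs lay between 2.67 and 5.28 in the mutants and at 4.21 in WT under TMM, and between 3.92 and 6.08 in the mutants and at 4.51 in WT under total counts. DESeq2 called 80 members in dxo1Δrai1Δnpy1Δ (73.1% of all RNAs with a base mean over 1), 81 in dxo1Δrai1Δ (73.8%), 81 in dxo1Δnpy1Δ (84.3%) and 81 in rai1Δ (70.3%).

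In npy1Δ the 81 members together had 150736 reads in the 3 +ADPRC libraries and 4231 in the 3 −ADPRC libraries, and 9 had no control read. RPL39 had 920, 524 and 671 reads in +ADPRC libraries and none in the controls, at least 368-fold more. RPL22A (239, 106 and 177 against none) and RPL35A (168, 75 and 116 against none) were at least 90.9-fold and 62.5-fold higher. RPL3 had 2087, 1131 and 2122 +ADPRC reads against 10, 2 and 21 −ADPRC reads (log2 fold change 6.35 ± 0.56) and RPL25 543, 241 and 388 against 0, 5 and 0 (6.90 ± 0.65). RPP0 had 7283, 2397 and 4938 against 147, 278 and 230 (3.50 ± 0.29). The stalk partners lay between these, from 4.12 ± 0.42 for RPP1A to 5.59 ± 0.52 for RPP2A, and RPL41A and RPL41B lay lower (1.96 ± 0.33 and 2.72 ± 0.36).

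The WT count rests on few reads. All 81 members together had 3739 reads in the 3 WT +ADPRC libraries and 149 in the 3 −ADPRC libraries, and 61 had no control read. Without 1 WT library the count of 32 lay between 17 and 33, at 21 without −ADPRC replicate 1, 17 without −ADPRC replicate 2, 21 without −ADPRC replicate 3 and 21 without +ADPRC replicate 1, and the stricter filter of edgeR on low counts left 8. RPL38 had 284, 58 and 20 reads in WT +ADPRC libraries and none in the controls, at least 78.3-fold more. RPL3 had 130, 25 and 19 and none, at least 37.6-fold more (floor of 3 reads over the 3 controls). RPL28, with 255, 47 and 23 against 1, 5 and 2, had a log2 fold change of 4.34 ± 0.76.

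The smallest WT differences among members with a base mean over 20 were those of RPL41A (88, 29 and 23 +ADPRC reads against 5, 13 and 3 −ADPRC reads; log2 fold change 2.17 ± 0.76, adjusted p = 0.0156 in edgeR), RPL41B (593, 181 and 113 against 27, 24 and 6; 3.31 ± 0.47) and RPP0 (299, 55 and 12 against 7, 7 and 0; 3.73 ± 0.70). The +ADPRC library of replicate 1 held most of the WT reads of each of these genes. The fitted median over the 54 tested members was 5.26. Set at their bounds where the control had no read, their median was 2.47. RPP1A (36, 3 and 9 against none) and RPP1B (49, 8 and 7 against none) were at least 10.4-fold and 13.8-fold higher. RPP2B (92, 10 and 7 against 0, 3 and 0) had a ratio of 23.6, with an exact 95% binomial interval of 7.85 to 116 that covers counting error only. RPL39 had 18, 13 and 1 reads against none in WT, at least 6.92-fold, and RPL22A, with 1, 0 and 2 against none, was too low to test.

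By edgeR under TMM 26 members were enriched in all 8 strains and 45 in 7. The same count over all RNAs was not made. In single mutant strains 44.7% to 87.3% of all RNAs were called enriched, and in WT 36.1%. Calls of a few others depended on the scaling. RPL32 was enriched in 3 strains by edgeR under TMM, in 8 under total counts and in 5 by DESeq2, RPL29 in 3, 7 and 6, and RPL11A in 4, 7 and 7. RPL32 had 109, 41 and 75 +ADPRC reads against 5, 1 and 27 −ADPRC reads in npy1Δ (log2 fold change 1.73 ± 0.77, adjusted p = 0.0706), 162, 58 and 21 against 59, 15 and 2 in rai1Δ (-0.67), and 134, 462 and 64 against 104, 12 and 104 in dxo1Δnpy1Δ (-1.62). In rai1Δ and dxo1Δnpy1Δ its sign turned, with 2.00 and 2.45 under total counts and 2.14 and 2.18 by DESeq2. RPL29, whose gene also has no intron, had 81, 23 and 106 against 5, 6 and 49 in npy1Δ (0.76 ± 0.74, adjusted p = 0.395). RPL11A, whose protein joins RPL5 on 5S rRNA, was called in dxo1Δ (509, 512 and 456 against 21, 49 and 47; 2.78). In rai1Δ (1336, 354 and 125 against 194, 57 and 15) it had 0.24 and no call by edgeR under TMM, and was called at 2.96 by DESeq2 and at 2.79 under total counts. For RPL32 the raw read counts of the +ADPRC and −ADPRC libraries overlapped in rai1Δ and in dxo1Δnpy1Δ. These libraries differed widely in depth, from 470978 to 6910085 counted reads in rai1Δ and from 4089133 to 29300164 in dxo1Δnpy1Δ. Counts that are not scaled to depth cannot show whether the groups were apart. The plot of fitted enrichment shows each strain's members.

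**Figure D5:**
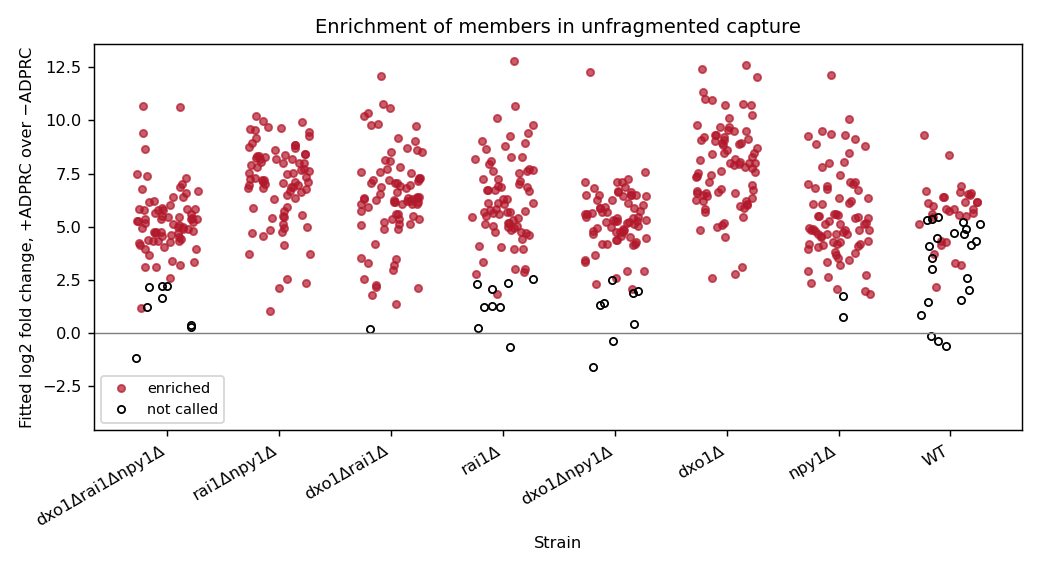
Fitted log2 fold change of +ADPRC over −ADPRC (edgeR, TMM) in unfragmented libraries for each member tested, by strain, one point per gene: filled red, called enriched; open, not called. The mutants have between 72 and 81 filled points of 81, and WT has 32 of 54; values far above 8 mostly belong to genes without a control read and are no measured folds.

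Fragmented RNA gave smaller differences. In small-fragment libraries 24 of 81 members were enriched in npy1Δ (3.65% of all RNAs) and 0 of 55 in WT (1.19%), where 9 passed at an unadjusted p under 0.05 (12.5% of all RNAs) and 0 by DESeq2. In large-fragment libraries 12 of 81 were enriched in npy1Δ (2.70%) and 2 of 39 in WT (2.25%). None was depleted by edgeR or DESeq2 (0 in each), where edgeR called 0.209% and 0.171% of all RNAs depleted in small fragments of npy1Δ and WT and 0.594% and 1.06% in large ones, and at an unadjusted p 1 member was depleted in the large fragments of each strain. The members' share was 10.8 ± 0.390% with ADPRC against 8.19 ± 0.945% without it in small-fragment npy1Δ libraries and 9.83 ± 1.06% against 7.49 ± 0.897% in large-fragment ones (exact two-sided permutation test p = 0.1, the smallest possible). In WT it was 1.16 ± 0.107% with ADPRC against 0.843 ± 0.270% without it and 1.24 ± 0.221% against 0.767 ± 0.257%, and the libraries overlapped (exact p = 0.2 for both). The time of fragmentation differed between npy1Δ and WT, so the strains are not compared directly here.

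RPL20A, RPL34A and RPL21A led the small-fragment npy1Δ libraries. RPL20A had 77, 91 and 65 +ADPRC reads against 10, 5 and 4 −ADPRC reads (log2 fold change 3.10 ± 0.34), RPL34A 75, 99 and 32 against 6, 7 and 6 (2.85 ± 0.33) and RPL21A 148, 199 and 111 against 17, 18 and 13 (2.72 ± 0.27). RPL39 had 87, 123 and 55 against 26, 24 and 16 (1.46 ± 0.27). In large-fragment libraries of npy1Δ RPL4A led with 450, 267 and 56 +ADPRC reads against 17, 23 and 46 −ADPRC reads (3.16 ± 0.46), followed by RPL21A (106, 29 and 53 against 3, 7 and 45; 2.24 ± 0.39) and RPL34A (80, 16 and 22 against 7, 4 and 19; 2.16 ± 0.39). In WT the 2 members called were RPL4A, with 75, 14 and 6 against 5, 2 and 2 (3.00 ± 0.67, adjusted p = 0.012), and RPL17A, with 29, 10 and 8 against 4, 1 and 3 (2.24 ± 0.64). At a base mean over 20, the lowest values were those of RPL24A and RPL15B in small fragments of npy1Δ (-0.52 and -0.39) and of RPL24A, RPL41A and RPL15B in large ones (-0.97, -0.67 and -0.66), and none of these was called.

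These fragment counts depended on single libraries. The small-fragment npy1Δ count of 24 became 6, 12 and 11 without −ADPRC replicate 1, 2 or 3 and 12 and 13 without +ADPRC replicate 1 or 2, and the large-fragment count of 12 became 6 without −ADPRC replicate 3 and 7 without +ADPRC replicate 1. The 2 calls in large-fragment WT libraries became 0 without −ADPRC or +ADPRC replicate 1, 1 without −ADPRC replicate 2 or 3, and 5 without +ADPRC replicate 3, and in small-fragment WT libraries up to 2 members were called. Scaling by total counts gave 52 members in small and 46 in large fragments of npy1Δ (13.2% and 13.3% of all RNAs), and 8 and 6 in WT (7.08% and 8.66%).

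Capture was then set against transcript level in the strains of the shared transcriptome run. The log2 ratio of captured to total 5′ reads had a median of 3.76 in npy1Δ and 1.82 in WT over the 81 members. Over 6177 mRNAs tested it was -0.69 and -0.91. The members' medians were not split by junction, and the transcriptome 5′ counts hold few reads of members with one. RPL3, RPL5, RPL10, the RPL41 copies and the stalk genes, without one, ran from -2.25 to 2.30 in npy1Δ. In WT they ran from -2.52 to 2.88. With one, RPL39, RPL25, RPL22A and RPL22B stood at 7.61, 6.41, 5.09 and 0.009 in npy1Δ. In WT these 4 stood at 5.76, 4.96, 2.68 and 0.48. The part of the junction in the members' medians was not tested. In one edgeR model over both kinds of library the ratio was larger in npy1Δ than in WT for 15 members (1.62% of mRNAs) and smaller for 1 (3.67%). Of the 15, 14 have a junction in the counted region, RPL16A (8.06 ± 0.80), RPL43B (4.25 ± 0.72), RPL2A (4.12 ± 0.94) and RPL30 (4.10 ± 0.49) among them, and the other was RPL9A (2.43 ± 0.63). RPL7B had the largest fitted value (8.85 ± 2.16), but it had no captured read in WT. RPL32, without a junction, was the one with the smaller ratio (-2.76 ± 0.66). Among mRNAs with a transcriptome base mean over 100, which include 34 members, 3 members were called. RPL32 and RPL9A were among the 16, and RPL14B was not. RPL16A had 204, 89 and 116 captured reads in npy1Δ and 1, 0 and 0 in WT.

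Whether enrichment itself differed with an added npy1Δ deletion was tested in 6 interactions over all RNAs. In unfragmented libraries 2 members differed between npy1Δ and WT (7.38% of all RNAs), RPL8A with a larger and RPL38 with a smaller enrichment in npy1Δ, and 4 members had a smaller enrichment in dxo1Δnpy1Δ than in dxo1Δ (2.71%). In the other 4 no member passed in edgeR, against 5 at an unadjusted p under 0.05 in rai1Δnpy1Δ against rai1Δ, 8 in dxo1Δrai1Δnpy1Δ against dxo1Δrai1Δ, 4 in small-fragment and 7 in large-fragment libraries of npy1Δ against WT, and 0 by DESeq2 in each. Of all RNAs 0.0898% passed in edgeR in dxo1Δrai1Δnpy1Δ against dxo1Δrai1Δ and 0.00% in the other 3. DESeq2 called 7 in the first and 0 in the second, and without npy1Δ −ADPRC replicate 1 or 2 the first gave 4, without WT −ADPRC replicate 1 or 2 it gave 0 and 1. Without dxo1Δnpy1Δ −ADPRC replicate 2 the second gave 50, and without dxo1Δrai1Δnpy1Δ −ADPRC replicate 2 the comparison with dxo1Δrai1Δ gave 10. The median difference of the members was -0.13 in npy1Δ against WT, where that of all RNAs was -1.47, and -3.05 in dxo1Δnpy1Δ against dxo1Δ, where that of all RNAs was -2.00.

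The genes whose level followed the members' mean log2 CPM most closely over the 24 transcriptome libraries were RPS1B (Pearson's r = 0.993), HHF2 (0.992), EGD2 (0.992), HHF1 (0.991) and PKR1 (0.990). RPS1B encodes a protein of the 40S subunit, HHF1 and HHF2 encode histone H4, and EGD2 encodes a subunit of the nascent polypeptide-associated complex, which binds chains as they leave the ribosome. Over the 21 mutant libraries alone r was 0.967, 0.936, 0.925, 0.939 and 0.944 in the same order. The libraries share runs and strains, and the difference between the mutants and WT carries much of the relation, so these values are a description only.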

How the data were processed

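The authors deposited tables of read counts per RNA for 72 capture libraries and 24 transcriptome libraries of 8 strains. By their methods, reads were trimmed and mapped with Bowtie, without gaps, to a BY4742 assembly, reads of rRNA and tRNA were set aside, and HTSeq counted the rest by strand, mRNAs over the region from 120 bases before to 65 bases after the translation start. A second transcriptome table held counts over coding sequences. The submitters' processing notes also name SAMtools 0.1.13 and DESeq2 1.4.5. The deposited comparison tables, which hold fold changes and p-values, were not used, and 0 columns of sample values were left unmapped.

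Counts were tested with edgeR 4.0.16 (R 4.3.3) by its quasi-likelihood test, with TMM scaling and a normalized base mean over 1, in fits of the groups compared only, and p-values were adjusted by Benjamini-Hochberg over all RNAs tested. Capture calls needed an adjusted p under 0.05 and a fold over 1.414 or under 0.707, and transcriptome calls an absolute log2 fold change over 0.5. SE is the log2 fold change divided by the root of F. Differences in enrichment and in the capture-to-transcript ratio were interaction terms. Shares of mRNA reads were compared by exact permutation. With a control at 0 reads, the fold is a lower bound against 3 reads over the 3 controls. DESeq2 1.42.0, other scalings, filters and left-out replicates served as alternatives. Python 3.11.15, pandas 2.3.3, SciPy 1.17.1 and matplotlib 3.10.9 were used for the rest, and the scripts were tested on simulated data.

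Genes given by library were RPL3, RPL5, RPL10, RPL25, RPL39, both RPL41 and both RPL22 copies and the 5 stalk genes, with the 3 largest and 3 smallest log2 fold changes per comparison at a base mean over 20, the members that were never or oppositely called, the 3 most and 3 least different pairs, and the 5 most alike genes. Some results that this rule selects are not reported here. The members, the lists and this rule were chosen with earlier results of these data known. RPL2A, RPL8A, RPL9B, RPL18B, RPL29, RPL39, RPL41B and RPL43A in the comparisons of RAI1, ADH2, RPL14B, and the division by junction and by RAI1, were chosen after their values were seen. Of the 6598 mRNAs, 5914 matched a RefSeq locus of R64, which gave introns and sequences. Nothing beyond the submitters' statement of biological replicates says how cultures were separated.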

Additional observations from a re-analysis of the deposited data

Results flagged for a closer look

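The 6 results below are differences in enrichment between strains, each from an interaction term in edgeR over all RNAs tested. Between npy1Δ and WT in unfragmented libraries, the log2 enrichment of RPL8A was larger by 7.84 ± 2.13 (SE; adjusted p = 0.00566) and that of RPL38 was smaller, with a difference of -5.66 ± 1.56 (adjusted p = 0.00646). RPL8A had 272, 121 and 250 +ADPRC reads against 0, 0 and 1 −ADPRC reads in npy1Δ, but 3, 0 and 0 against 3, 0 and 0 in WT. RPL38 had 9914, 3080 and 7530 against 58, 81 and 125 in npy1Δ and 284, 58 and 20 against none in WT, so its fitted WT value is no measured fold.

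Between dxo1Δnpy1Δ and dxo1Δ the differences were -4.23 for RPL32, -6.77 for RPP1B, -2.67 for RPL29 and -7.14 for RPL1B. RPL32 had 134, 462 and 64 +ADPRC reads against 104, 12 and 104 −ADPRC reads in dxo1Δnpy1Δ and 74, 119 and 95 against 9, 10 and 7 in dxo1Δ. RPL29 had 71, 225 and 42 against 14, 3 and 16 in dxo1Δnpy1Δ and 44, 41 and 55 against 2, 2 and 5 in dxo1Δ. RPP1B (389, 1191 and 236 against 6, 0 and 5) and RPL1B (1326, 4356 and 1028 against 10, 0 and 4) were compared with dxo1Δ controls that held no read of either. None of these 4 passed in DESeq2, with RLE factors, with total counts or with a replicate block. The part of the control libraries' unequal composition in these values was not tested.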

How the results depend on the processing

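Of the alternatives other than left-out replicates, 466 values kept their direction and side of the threshold, 68 moved, 12 no longer passed, 5 newly passed and 2 reversed. With 1 replicate left out, 616 kept both, 40 moved, 29 no longer passed and 6 newly passed. The 2 reversals were RPL22B, at -0.56 in dxo1Δrai1Δ against dxo1Δ and -0.67 in dxo1Δrai1Δnpy1Δ against dxo1Δnpy1Δ by coding counts. The cause was not tested. In unfragmented WT capture 27 members were too low to test and 61 had no control read.

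Members enriched in unfragmented WT libraries numbered 8 with edgeR's filter on low counts and 17 to 33 with 1 replicate left out. In small fragments npy1Δ gave 12 with DESeq2, 14 with RLE factors, 52 with total counts, 46 at an unadjusted p and 6 to 36 with a replicate left out, and WT gave 8 with total counts, 9 at an unadjusted p and 0 to 2 with a replicate left out. In large fragments npy1Δ gave 46 with total counts, 31 at an unadjusted p and 6 to 15 with a replicate left out, and WT gave 1 with DESeq2, 6 with total counts, 0 with the filter, 6 at an unadjusted p and 0 to 5 with a replicate left out. The changes between mutants numbered 16 at a log2 fold change over 2, 30 by coding counts and 91 to 154 with a replicate left out. Different enrichment in npy1Δ against WT gave 7 with DESeq2, 1 with RLE factors and 0 to 4 with a replicate left out, that in dxo1Δnpy1Δ against dxo1Δ gave 0 with DESeq2, total counts or RLE factors and 0 to 50, and that in dxo1Δrai1Δnpy1Δ against dxo1Δrai1Δ gave 0 to 10. The capture-to-transcript ratio differed for 3 members at a transcriptome base mean over 100.

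As a share of all counted reads instead of mRNA reads, the members' 5′ share in the transcriptome over that of WT was 21.0 in npy1Δ, 25.1 in dxo1Δ, 33.7 in rai1Δ, 25.5 in dxo1Δnpy1Δ, 26.2 in dxo1Δrai1Δ, 29.4 in rai1Δnpy1Δ and 32.2 in dxo1Δrai1Δnpy1Δ. The +ADPRC share over the −ADPRC share was 42.1 in npy1Δ, 211 in dxo1Δ, 119 in rai1Δ, 199 in dxo1Δnpy1Δ, 87.6 in dxo1Δrai1Δ, 113 in rai1Δnpy1Δ, 70.4 in dxo1Δrai1Δnpy1Δ and 23.3 in WT, 2.11 and 2.08 in small fragments of npy1Δ and WT, and 1.95 in large fragments of npy1Δ. By coding counts the share over WT was 11.4 in rai1Δ and 11.6 in dxo1Δrai1Δnpy1Δ. Under total counts the share of all RNAs called depleted was 5.11%, 3.64%, 2.77%, 3.22%, 2.41%, 3.39% and 0.879% in dxo1Δrai1Δnpy1Δ, rai1Δnpy1Δ, dxo1Δrai1Δ, dxo1Δnpy1Δ, rai1Δ, dxo1Δ and npy1Δ and 0.384% in WT.

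Replicate numbers did not pair the libraries: in 0 of 28 comparisons did every pair correlate above 0.1, and in 4 each library correlated best with its own number. With the replicate number as a block, 6 members were enriched in unfragmented WT, 0 in dxo1Δnpy1Δ and 38 in small fragments of npy1Δ, and 1 and 0 differed in enrichment in npy1Δ against WT and in dxo1Δnpy1Δ against dxo1Δ. The block moved no other count of calls by over 1.5 times.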
